A study of Caenorhabditis elegans with 6 samples.

Results

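The genes described here encode the subunits of the *C. elegans* proteasome. They were chosen by name, as the genes whose WormBase symbol begins with pas-, pbs-, rpt- or rpn- and that had a level of 1 CPM (reads of the gene, scaled to a common library size) or more in 3 or more of the 6 libraries. The symbols gave 33 genes and all 33 passed, out of 46904 gene identifiers, of which 12385 passed the same filter and were tested. The pas- and pbs- symbols placed 7 genes in the alpha ring and 7 in the beta ring of the 20S core. The rpn- symbol covers both parts of the 19S cap, so a written list of genes placed 10 in its base and 9 in its lid. The small lid subunit gene *dss-1* carries another symbol and was described separately.

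The worms were N2, the wild-type strain of *C. elegans*, and all groups shared this background and the OP50 bacterial food. The treated group was exposed from young adulthood on to 50 µM CGP37157, an inhibitor of the mitochondrial sodium-calcium exchanger, and the control group to none. Both were grown at 20 ºC, and RNA of whole worms from day 5 of treatment gave 3 control and 3 CGP37157 libraries. The labels do not say that the libraries of a group came from separate cultures, so p-values measure the spread between these libraries, which may be technical.

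The 26S proteasome degrades proteins that carry ubiquitin chains. In its 20S core, rings of alpha subunits form the gate and rings of beta subunits hold the peptidases, and the 19S cap recognises, unfolds and feeds in the substrate through a base with 6 ATPases and a lid that removes ubiquitin. In *C. elegans* the transcription factor SKN-1A, an isoform of *skn-1*, is known to raise the proteasome genes together when proteasome function is impaired.

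Total counts per library were 21122852 to 24551795. The trimmed mean of M-values (TMM) factors, which correct for a few abundant genes taking a larger share of the reads, ran from 0.815 in control replicate 2 to 1.13 in control replicate 1, and CGP37157 replicate 2 had 1.12. Levels are CPM after TMM unless stated otherwise. The 8 intestine markers, which include the abundant yolk protein genes, summed to between 82449 and 152307 CPM in the control libraries, highest in replicate 2, and to between 81991 and 90134 CPM in the treated ones. The yolk protein genes *vit-2*, *vit-5* and *vit-6* were the 3 intestine markers below 0, with log2 fold changes of -0.59, -0.40 and -0.20, while the 5 others were above 0 and the median of the 8 was 0.12, so the lower treated sum was not shared by the list. The 8 body wall muscle markers were all tested, and their summed level was 3536 to 6921 CPM in the controls and 3241 to 4327 CPM in the treated libraries. The 6 tested neuron markers summed to 321 to 448 CPM over all libraries. Of the 8 hypodermis markers only 2 were tested, and the neuron marker *unc-17* had 0 counts in every library. The part of these differences in the values below was not tested, and in RNA from whole worms fewer cells of a type and less RNA per cell cannot be told apart.

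No proteasome subunit gene was called higher or lower in CGP37157-treated worms than in control worms. By edgeR's quasi-likelihood test with Benjamini-Hochberg adjustment over the 12385 genes, 0 of 33 members passed an adjusted p of 0.05 in either direction, and DESeq2 also called 0. Over all genes tested, 1.16% were called higher and 0.234% lower. At an unadjusted p of 0.05 the members gave 0 in both tools, against 4.79% of all genes tested in edgeR, and the lowest unadjusted p in edgeR was 0.169, for *rpn-6.2*. The control and treated libraries overlapped for all 33 members, and 7.54% of all genes tested had groups of 3 libraries that did not overlap. Most members moved together across libraries, as described below, so these counts do not set the members apart from all genes tested.

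The log2 fold changes, treated over control, lay between -0.39 for *rpn-6.2* and 0.11 for *pas-7*, with 8 members above 0 and 25 below. Their median was -0.05, beside -0.01 for all genes tested. The standard errors were 0.19 to 0.29, with a median of 0.23, and the 95% interval of each member included 0. The intervals of all 33 members lay within -0.98 and 0.74, and those of the 32 members other than *rpn-6.2* lay within -0.70 and 0.74. The SD between libraries within a group had a median of 0.27 over the members on the log2 CPM scale, beside 0.30 over all genes tested. The sign of the median rested on single libraries. It was 0.11 without control replicate 2, 0.06 without CGP37157 replicate 2 and 0.22 without both, with 29 of 33 members then above 0 and none called.

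**Figure D1:**
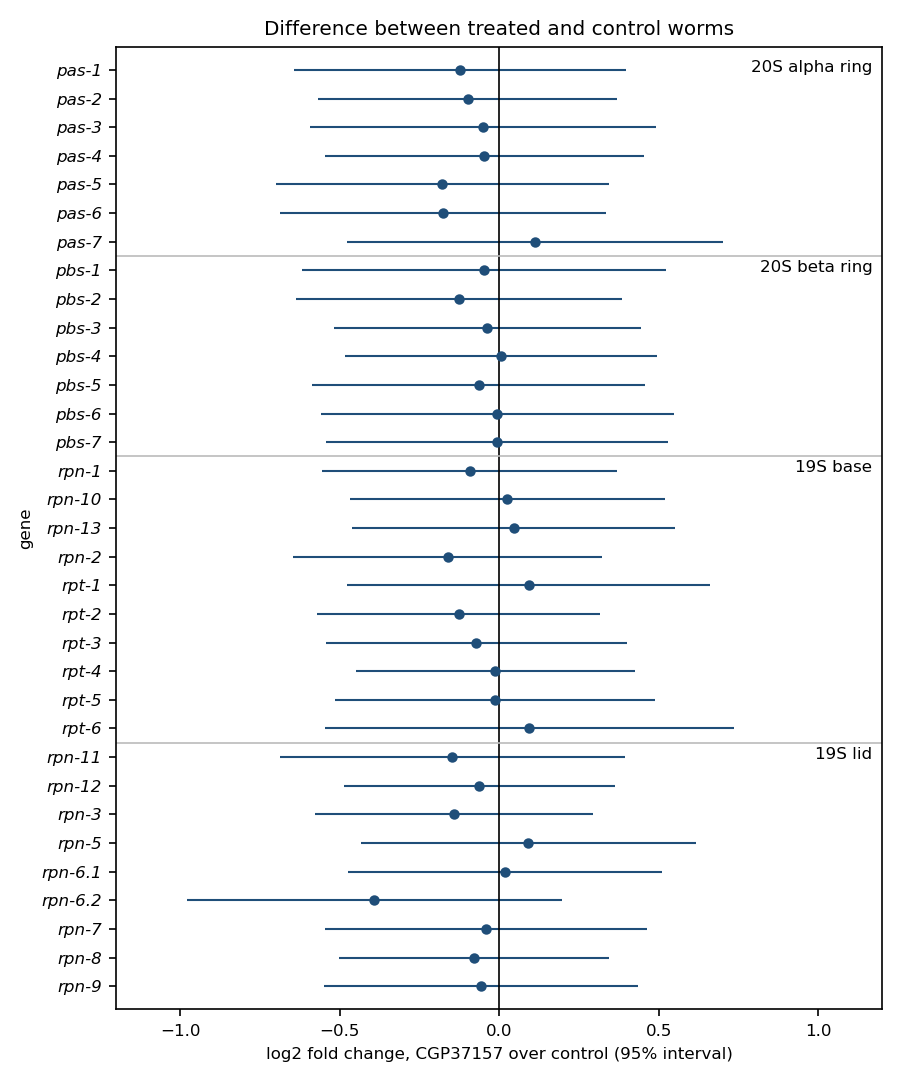
Log2 fold change of each of the 33 proteasome subunit genes, CGP37157 over control, with its 95% interval from edgeR's quasi-likelihood fit, grouped by position in the complex. All intervals include 0, and *rpn-6.2* at -0.39 stands farthest from it.

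The 7 alpha ring genes had a median log2 fold change of -0.10, with 1 above 0 and 6 below. Their intervals ran from -0.70 to 0.70. *pas-5* had 306, 335 and 214 CPM in the control libraries and 289, 215 and 253 CPM in the treated ones (replicates 1 to 3), a log2 fold change of -0.18 ± 0.24 (SE). *pas-6* had 218, 291 and 189 CPM in the control and 235, 174 and 209 CPM in the treated libraries, a log2 fold change of -0.18 ± 0.23. For both genes control replicate 2 was the highest of all libraries, and the groups overlapped.

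*pas-7* had the highest log2 fold change of all members, 0.11 ± 0.27 (SE). Its levels were 133, 233 and 186 CPM in the control and 203, 149 and 244 CPM in the treated libraries, so the lowest and the second highest library were both controls. *pas-3*, the alpha ring gene with the highest level per length, had 296, 402 and 270 CPM in the control and 365, 243 and 326 CPM in the treated libraries (log2 fold change -0.05 ± 0.24). *pas-2*, the lowest per length in this ring, had 142, 162 and 125 CPM against 140, 108 and 152 CPM (-0.10 ± 0.21). The alpha subunits form the outer rings of the core and close its entrance. The other genes of this ring, *pas-1* and *pas-4*, had log2 fold changes of -0.12 and -0.05.

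The 7 beta ring genes had a median log2 fold change of -0.04, with 1 above 0 and 6 below. The peptidase activity lies in 3 of them. *pbs-1*, the caspase-like subunit by homology, had 279, 440 and 297 CPM in the control and 390, 254 and 339 CPM in the treated libraries (-0.05 ± 0.26). *pbs-2*, the trypsin-like subunit, had 148, 200 and 125 CPM in the control and 160, 121 and 153 CPM in the treated libraries (-0.13 ± 0.23). *pbs-5*, the chymotrypsin-like subunit, had 140, 211 and 137 CPM in the control and 171, 128 and 167 CPM in the treated libraries (-0.06 ± 0.23). In all 3 the highest library was control replicate 2 and the lowest treated library was CGP37157 replicate 2. The structural subunits *pbs-3* (-0.04), *pbs-4* (0.01), *pbs-6* (-0.01) and *pbs-7* (-0.01) were close to 0. *pbs-7* shares 70 bases of exon with K07A12.5 on the same strand, and reads there cannot be assigned to one of the genes.

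The 10 base genes had a median log2 fold change of -0.01, with 4 above 0 and 6 below. The 6 *rpt* genes encode the AAA ATPases that unfold the substrate. *rpt-6* had 107, 223 and 166 CPM in the control and 183, 133 and 213 CPM in the treated libraries, a log2 fold change of 0.09 ± 0.29 (SE), the largest error of the members. *rpt-1* had 262, 419 and 347 CPM in the control and 374, 281 and 441 CPM in the treated libraries (0.09 ± 0.26). In both genes control replicate 1 was the lowest of all libraries, so the control group alone spanned most of the range. The other ATPases were *rpt-2* (-0.13), *rpt-3* (-0.07), *rpt-4* (-0.01) and *rpt-5* (-0.01).

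Of the non-ATPase subunits of the base, *rpn-1* and *rpn-2* encode its large scaffolds, and *rpn-10* and *rpn-13* encode ubiquitin receptors. *rpn-1*, the base gene with the lowest level per length, had 224, 285 and 219 CPM in the control and 215, 211 and 256 CPM in the treated libraries (-0.09 ± 0.21). *rpn-2* had a log2 fold change of -0.16, and both receptors lay just above 0, *rpn-10* at 0.03 and *rpn-13* at 0.04. None of the differences exceeded its error.

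The 9 lid genes had a median log2 fold change of -0.06, with 2 above 0 and 7 below. *rpn-11*, which encodes the deubiquitinase of the lid, had 352, 430 and 288 CPM in the control and 393, 260 and 314 CPM in the treated libraries (-0.15 ± 0.24). *rpn-3* (-0.14), *rpn-5* (0.09), *rpn-7* (-0.04), *rpn-8* (-0.08), *rpn-9* (-0.06) and *rpn-12* (-0.06) encode the other subunits of the lid. *rpn-7* shares 394 bases of exon with *nemt-1* on the opposite strand, and 10 of the 11 members with such an overlap share it with a gene on the opposite strand. The library kit marks strand, but whether the counting used it is not given in the sources used here, so these genes are uncertain to that extent.

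RPN-6, the lid subunit that clamps the cap to the core, is encoded by a pair of paralogs. *rpn-6.1*, whose higher expression is known from long-lived worms without a germline, is on the minus strand of chromosome III (6959110 to 6962001 in WBcel235), and *rpn-6.2* is on the same strand and chromosome (8999817 to 9001999). *rpn-6.1* had 94.7, 133 and 124 CPM in the control and 110, 101 and 145 CPM in the treated libraries, a log2 fold change of 0.02 ± 0.22 (SE). *rpn-6.2* had 34.1, 20.2 and 17.9 CPM in the control and 18.2, 19.3 and 17.7 CPM in the treated libraries, a log2 fold change of -0.39 ± 0.26 with a 95% interval from -0.98 to 0.20. Control replicate 1 alone was high, and the 5 other libraries lay between 17.7 and 20.2 CPM. Without control replicate 1 the log2 fold change of *rpn-6.2* was -0.05. Per length, *rpn-6.2* stood at 0.381, 0.160 and 0.154 of *rpn-6.1* in the control libraries and at 0.175, 0.201 and 0.129 in the treated ones, so the pair kept its order in all 6 libraries. Reads that fit both paralogs could have been split or dropped in the counting, which is not stated.

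**Figure D2:**
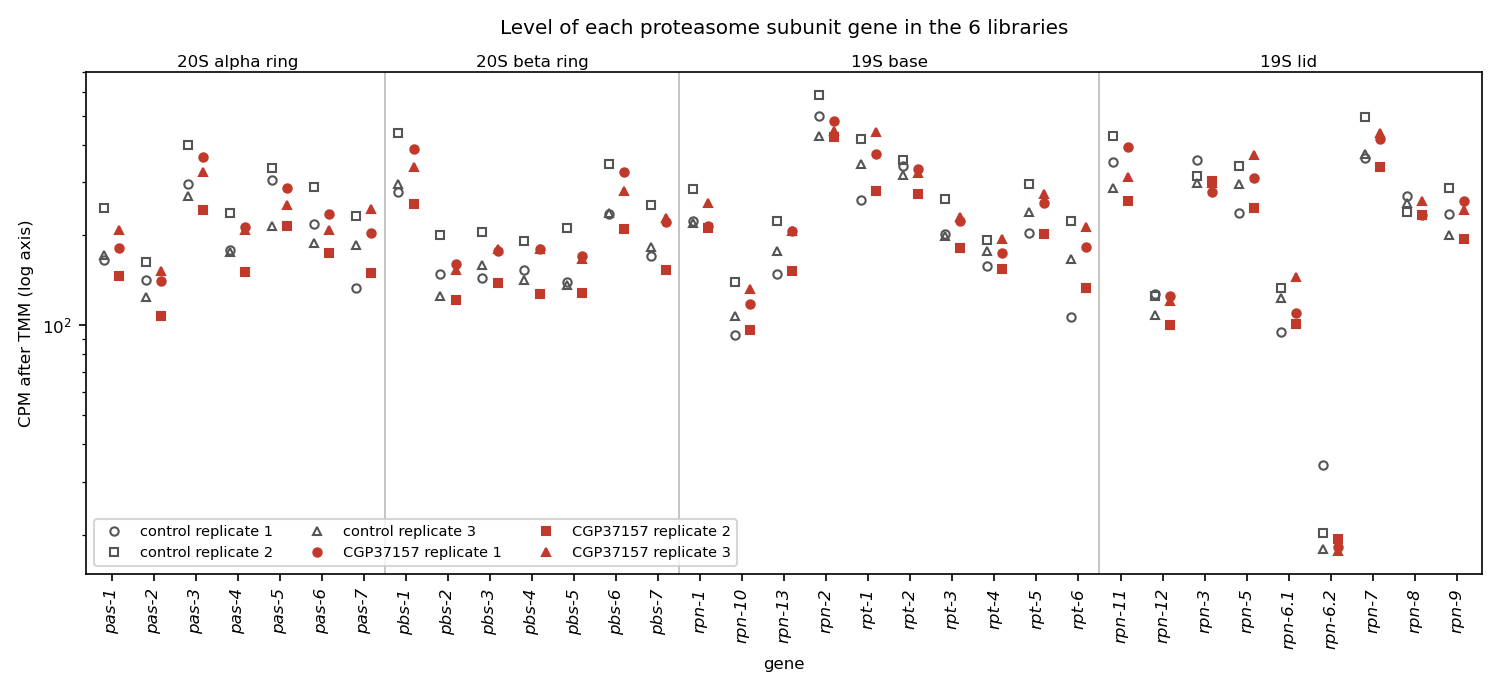
CPM after TMM on a log axis for each of the 33 genes, with open symbols for the 3 control libraries and filled symbols for the 3 CGP37157 libraries. Control replicate 2 (open squares) was the highest control library in 29 genes and CGP37157 replicate 2 (filled squares) the lowest treated library in 31.

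The members had a common order across libraries, which cut across the groups. Control replicate 2 was the highest control library for 29 of 33 members, against 41.4% of all genes tested, and CGP37157 replicate 2 was the lowest treated library for 31 of 33, against 33.4%. Both held for 29 members (87.9%), beside 22.6% of all genes tested. This included each of the 7 alpha, 7 beta and 10 base genes and 5 of the 9 lid genes, and the exceptions were *rpn-3*, *rpn-6.2*, *rpn-8* and *rpn-12*. The median deviation of the members from their own mean over 6 libraries was -0.11, 0.30 and -0.11 (log2 CPM) in the control libraries and 0.09, -0.27 and 0.12 in the treated ones. The difference between libraries of a group was thus larger than that between the groups.

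The order depended on the scaling. With library totals in place of TMM, the median deviations of the members were 0.07, 0.01 and -0.06 in the control and 0.03, -0.11 and 0.09 in the treated libraries, and control replicate 2 was the highest control library for 8 of 33 members (15.0% of all genes tested). CGP37157 replicate 2 was then still the lowest treated library for 26 members (16.9% of all genes tested). The same change of scaling moved the median of all genes tested from 0.04 to -0.23 in control replicate 2 and from 0.00 to 0.15 in CGP37157 replicate 2. A change of scaling moves all genes of a library alike, so the distance of the members from that median is nearly the same under both scalings by construction and says nothing of how stable the order is.

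The summed level of the 33 genes gave the same picture. It was 7014, 9130 and 6953 CPM in the control and 7961, 6223 and 8058 CPM in the treated libraries, 7699 ± 1240 against 7414 ± 1032 (SD, n = 3 each). With library totals the sums were 7910, 7442 and 7230 CPM against 7604, 6949 and 7904 CPM, 7527 ± 348 against 7486 ± 488. Under each scaling the difference between the means was smaller than the SD of either group.

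The 12 germline and oocyte markers moved in a like order, with median deviations of -0.32, 0.33 and 0.02 in the control and 0.06, -0.27 and 0.28 in the treated libraries after TMM. Their summed level was 5436 to 8833 CPM in the controls and 5743 to 8099 CPM in the treated libraries. None of the 12 was called, and their median log2 fold change was 0.01. After TMM, control replicate 2 was the highest control library for the other marker lists too. Its median deviations were 0.63 (body wall muscle), 0.44 (intestine), 0.29 (neuron), 0.525 (hypodermis) and 0.765 (sperm). Of these lists, CGP37157 replicate 2 was the lowest treated library for the 2 tested hypodermis genes alone (-0.305). With library totals, the highest control library of the germline list was replicate 3 (0.075, against 0.038 in replicate 2). The part of any marker list in the order of the proteasome genes was not tested. After TMM the order was also not particular to the proteasome genes among the related lists. In control replicate 2 and CGP37157 replicate 2 the median deviations after TMM were 0.23 and -0.21 for the ubiquitin, E1 and E2 genes, 0.12 and -0.26 for the associated factors and alternative caps, and 0.19 and -0.14 for the SKN-1A pathway, in each list the highest control and the lowest treated library. The eIF3 genes had 0.31 and -0.14 and the CCT genes 0.29 and -0.13, but in both the lowest treated library was replicate 1 (-0.22 and -0.17). The CDC-48 cofactors had -0.03 and -0.22, and the COP9 genes, with -0.19 and 0.05, did not follow this order. With library totals, control replicate 2 was instead the lowest control library for the ubiquitin, associated and SKN-1A lists (-0.062, -0.173 and -0.108). CGP37157 replicate 2 was then still the lowest treated library for the ubiquitin (-0.048) and associated (-0.105) lists. For the SKN-1A list it had 0.019, and the lowest treated library was replicate 1 (-0.075). Of the 10 sperm markers 5 were tested, and these summed to 3.3 to 13.2 CPM.

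**Figure D3:**
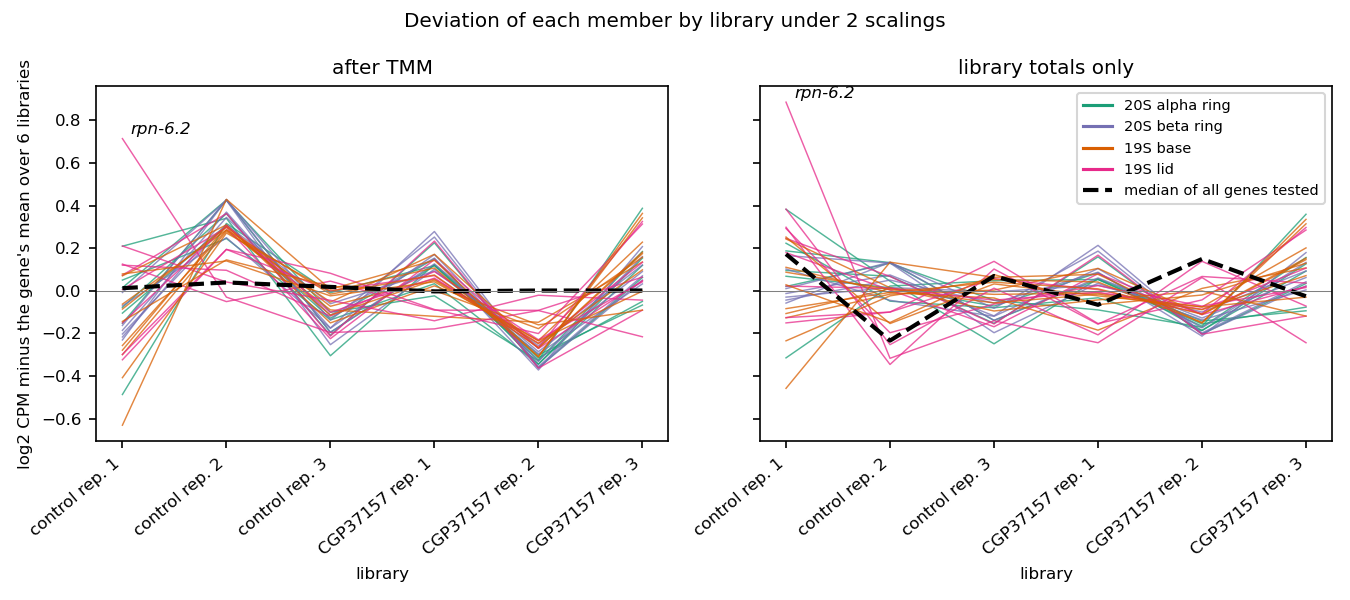
Deviation of each member in log2 CPM from its own mean over 6 libraries, by library, after TMM (left) and with library totals only (right), with lines that only link the values of 1 gene and a dashed line for the median of all genes tested. After TMM most members rise together in control replicate 2 (median 0.30), but *rpn-6.2* (-0.03) and *rpn-8* (-0.05) do not. Most fall together in CGP37157 replicate 2 (median -0.27), where *rpn-3* is near 0 (-0.02). With library totals these medians are 0.01 and -0.11.

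Compared per kilobase of merged exon, the proteasome genes were among the more abundant messages. Their levels lay between percentiles 53.8 and 97.6 of all genes tested, with a median percentile of 94.7. The coefficient of variation over the 33 members within a library was 43.8% ± 3.7 (SD over 6 libraries), and 39.9% ± 3.9 without *rpn-6.2*. Within a library the highest and lowest members differed 31.8-fold ± 9.74 (mean and SD over 6 libraries), and 5.88-fold ± 0.886 without *rpn-6.2*.

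The highest member per kilobase was the catalytic *pbs-1*, with 412 ± 108 CPM per kb in the control and 398 ± 83.0 in the treated libraries (SD, n = 3 each). *pas-3* followed with 361 ± 78.1 and 349 ± 69.9, within the spread of *pbs-1*. In the lid *rpn-11* was highest with 289 ± 57.3 and 261 ± 54.2. In the base *rpt-1* (227 ± 52.2 and 241 ± 53.1) and *rpt-2* (229 ± 13.1 and 210 ± 21.1) did not differ beyond their spread, and *rpn-1* was lowest with 76.5 ± 11.5 and 71.7 ± 7.97. In the alpha ring *pas-2* was lowest with 170 ± 22.5 and 159 ± 27.4, and in the beta ring *pbs-5* (153 ± 39.6 and 147 ± 22.2) and *pbs-2* (157 ± 38.2 and 144 ± 20.3) shared the lowest place within their spread. *rpn-6.1*, with 71.2 ± 12.2 and 72.1 ± 14.1, was the lowest lid gene after *rpn-6.2*, with 15.5 ± 5.64 and 11.8 ± 0.536.

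The proportions between the parts of the complex were compared within each library. The median level per kilobase of the beta ring was 0.942 ± 0.040 of that of the alpha ring in the control and 0.951 ± 0.0039 in the treated libraries. For the base this ratio was 0.638 ± 0.033 and 0.644 ± 0.048, and for the lid without *rpn-6.2* it was 0.838 ± 0.095 and 0.840 ± 0.063 (SD, n = 3 each). For the base and the lid the difference between the means was smaller than the SD of either group. For the beta ring it was smaller than the SD of the control libraries but larger than that of the treated ones, and the treated libraries (0.949, 0.955 and 0.948) lay within the range of the control ones (0.944, 0.901 and 0.981). These ratios lie within a library and do not depend on its scaling.

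**Figure D4:**
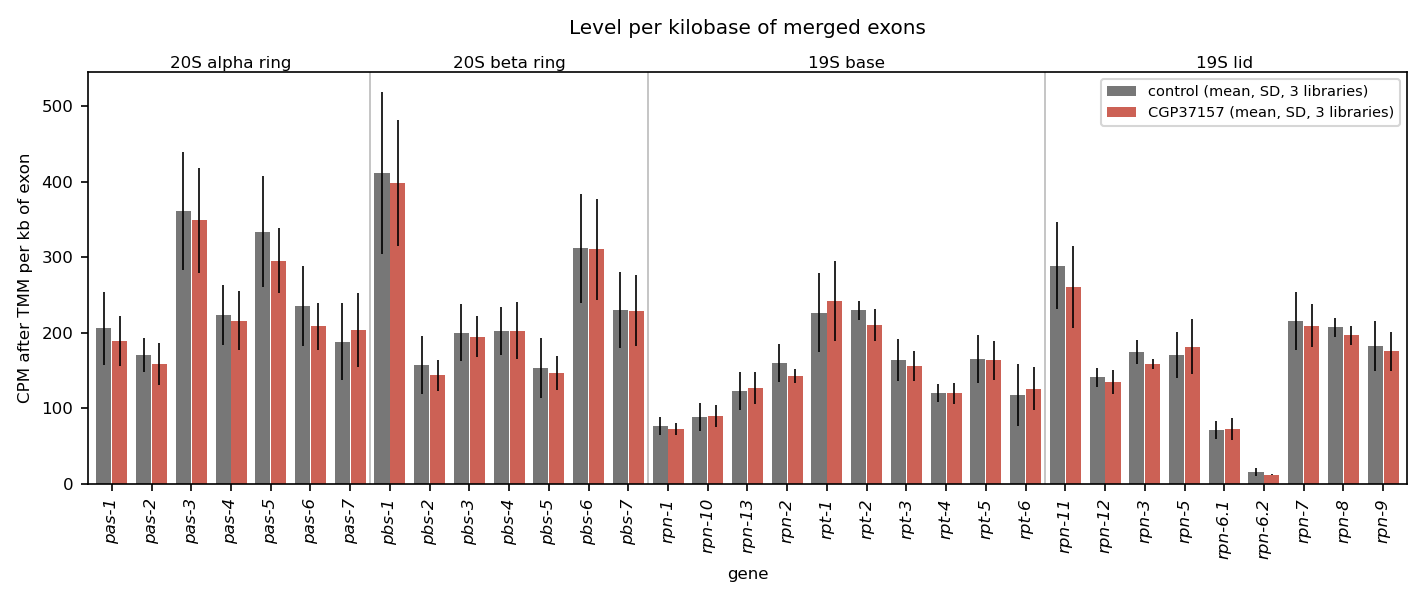
Mean level of each member in CPM after TMM per kilobase of merged exon, with the SD over 3 libraries, in control (grey) and CGP37157 (red) worms. *pbs-1* is the highest member (412 and 398) and *rpn-6.2* the lowest (15.5 and 11.8), and the error bars of the groups overlap for each gene.

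The members were spread over chromosomes I (10 genes), II (7), III (8), IV (3) and V (5). None lay on chromosome X, which held 14% of all genes tested.

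The genes that control or surround the proteasome also gave no calls. Over all genes tested 1.16% were called higher and 0.234% lower, so the absence of calls in lists this short says little about them. The 8 genes of the SKN-1A activation pathway, which releases, cleaves and edits the factor, had a median log2 fold change of 0.01. *skn-1* itself had 153, 229 and 216 CPM in the control and 182, 198 and 251 CPM in the treated libraries (0.08 ± 0.23, SE), and the counts do not separate its isoforms. *ddi-1*, the protease that cleaves SKN-1A, had 104, 92.4 and 98.8 CPM in the control and 93.5, 87.8 and 115 CPM in the treated libraries (0.00 ± 0.19). *png-1*, the glycanase that edits it, had 45.6, 62.0 and 48.7 CPM in the control and 59.9, 46.8 and 48.9 CPM in the treated libraries (-0.01 ± 0.21). The groups overlapped for each of these genes.

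The 9 tested genes for associated factors and alternative caps had a median of -0.04, and the lid subunit gene *dss-1* stood at -0.01. The lowest of them was *ubh-4*, which encodes a deubiquitinase bound to the cap, at -0.32 with an unadjusted p of 0.266 in edgeR's fit. The 23 tested genes for ubiquitin and the E1 and E2 enzymes that activate and carry it had a median of 0.00, with 12 above 0 and 11 below. The 11 genes for cofactors of CDC-48, the ATPase that extracts ubiquitinated proteins, and for an E4 ligase were all above 0, with a median of 0.09, and their lowest unadjusted p was 0.364.

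Other assemblies gave a comparison. The COP9 signalosome and the translation factor eIF3 share their architecture with the lid, and the CCT chaperonin folds cytosolic proteins. Their medians were 0.02 over 6 tested genes, -0.13 over 11 and -0.12 over 8, with 0 calls in each, which says as little in lists this short. Of the eIF3 genes 10 were below 0, and of the CCT genes all 8 were. The body wall muscle markers had a median of -0.39 with all 8 below 0 and none called. Over all genes tested, 5868 were above 0 and 6517 below. Genes that move together across libraries are not independent, so the counts of signs in a list do not by themselves show a shift. Of all genes in these lists and the marker lists only *cpr-1*, a gut cysteine protease gene among the intestine markers, had an unadjusted p under 0.05. In edgeR's fit this p was 0.0476, with a log2 fold change of 0.98 ± 0.44 and an adjusted p of 0.9999. Its levels were 102, 120 and 59.8 CPM in the control and 319, 155 and 82.8 CPM in the treated libraries, so the groups overlapped. The intestine marker *ges-1* (0.49, unadjusted p 0.0505 in edgeR's fit) alone had groups that did not overlap. Over all genes tested these shares were 4.79% for the unadjusted p and 7.54% for groups that did not overlap.

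**Figure D5:**
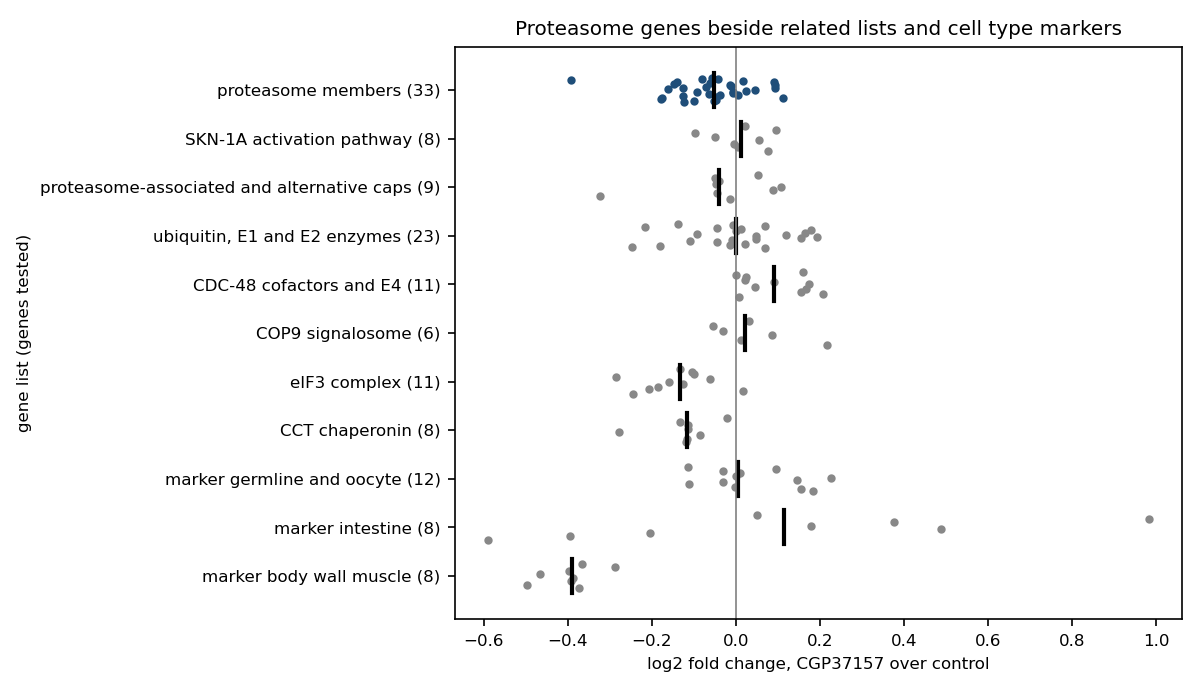
Log2 fold change, CGP37157 over control, of each tested gene in the proteasome and in 10 related or marker lists, with a bar at the median of each list. The 33 proteasome genes have a median of -0.05, and the body wall muscle markers, at -0.39, are the list farthest from 0.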

How the data were processed

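Messenger RNA of whole N2 worms was sequenced in 6 libraries as paired-end reads from a stranded kit, and groups were taken from the sample labels. The deposited values are each gene's raw read counts, whole numbers without normalization, and the counts are the same in both of the authors' tables. The submitters' processing notes name HISAT2, featureCounts, DESeq2, edgeR and DESeq without version. The genome build and the strand setting of the counting are not given in the sources used here. The tables also hold 12 columns of scaled counts per library, and the group means, fold changes and p-values of the authors' own comparisons. None of these was used.

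Symbols were found for 44017 of 46904 identifiers. Exon lengths and positions came from Ensembl release 115 of WBcel235. Genes that reached 1 CPM in 3 or more libraries were tested with edgeR 4.0.16 (glmQLFit with default settings, TMM, condition alone) in R 4.3.3, with Benjamini-Hochberg adjustment and a threshold of 0.05. Standard errors were derived from the test statistic, and 95% intervals used 10.2 degrees of freedom. Deviations used log2(CPM + 0.5). Replicates of a group differed by more than sampling noise (lowest chi-square per degree of freedom 29.8). The scripts were tested on simulated data. The alternatives were DESeq2 1.42.0, other scalings, filters and tests, the replicate number as a block, and each library left out.

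The members and gene lists were chosen with earlier results of these data known. Values in every library were given for the 3 highest and 3 lowest log2 fold changes, the catalytic beta subunits, the *rpn-6* paralogs and the members of highest and lowest level per length in each subcomplex, and for *skn-1*, *ddi-1* and *png-1*. Of the other lists, genes with an unadjusted p under 0.05 were named with these values. The genes *dss-1*, *ubh-4*, *unc-17*, *ges-1* and the *vit* genes were named after their values were seen. Of the listed symbols *psme-4*, *ubc-2*, *csn-7* and *csn-8* were not matched, and *ubc-21*, *ubc-22* and *ubc-24* fell below the filter.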

Additional observations from a re-analysis of the deposited data

How the results depend on the processing

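No proteasome gene was called, and none had an unadjusted p under 0.05, under any of the 14 alternatives, which include DESeq2 and each library left out. The median log2 fold change of the members was -0.02 with DESeq2-type size factors, -0.0031 with library totals, -0.01 with DESeq2, -0.02 without a filter and -0.05 with filterByExpr, the likelihood ratio test and the replicate block. It ran from -0.13 to 0.11 with 1 library left out, and was 0.22 without replicate 2 of both groups, a setting chosen after seeing the data. The spread of levels per kilobase was 43.7% with the longest transcript in place of merged exons.

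The direction of single members, none of which was called, depended on the setting. It turned with DESeq2-type size factors for *pbs-6* 0.021, *pbs-7* 0.020, *rpt-4* 0.013 and *rpt-5* 0.013, with library totals for *pbs-1* 0.0094, *pbs-3* 0.015, *pbs-6* 0.046, *pbs-7* 0.044, *rpn-7* 0.010, *rpt-4* 0.029 and *rpt-5* 0.038, with DESeq2 for *pbs-6* 0.030, *pbs-7* 0.029, *rpt-4* 0.022 and *rpt-5* 0.021, and without a filter for *pbs-6* 0.022, *pbs-7* 0.021, *rpt-4* 0.014 and *rpt-5* 0.013. It turned without replicate 2 of both groups for *pas-1* 0.21, *pas-2* 0.14, *pas-3* 0.29, *pas-4* 0.25, *pas-5* 0.057, *pas-6* 0.12, *pbs-1* 0.34, *pbs-2* 0.19, *pbs-3* 0.24, *pbs-5* 0.29, *pbs-6* 0.36, *pbs-7* 0.35, *rpn-1* 0.090, *rpn-11* 0.14, *rpn-12* 0.061, *rpn-2* 0.0035, *rpn-7* 0.22, *rpn-9* 0.20, *rpt-3* 0.17, *rpt-4* 0.14 and *rpt-5* 0.26. With 1 library left out at a time the log2 fold change crossed 0 for *pas-1* -0.23 to 0.086, *pas-2* -0.19 to 0.033, *pas-3* -0.18 to 0.14, *pas-4* -0.13 to 0.11, *pas-6* -0.31 to 0.016, *pas-7* -0.073 to 0.32, *pbs-1* -0.19 to 0.19, *pbs-2* -0.27 to 0.081, *pbs-3* -0.14 to 0.12, *pbs-4* -0.080 to 0.15, *pbs-5* -0.17 to 0.17, *pbs-6* -0.15 to 0.20, *pbs-7* -0.11 to 0.18, *rpn-1* -0.17 to 0.038, *rpn-10* -0.10 to 0.20, *rpn-11* -0.31 to 0.0093, *rpn-12* -0.13 to 0.030, *rpn-13* -0.083 to 0.21, *rpn-5* -0.044 to 0.23, *rpn-6.1* -0.14 to 0.12, *rpn-7* -0.13 to 0.12, *rpn-9* -0.17 to 0.090, *rpt-1* -0.069 to 0.26, *rpt-3* -0.15 to 0.074, *rpt-4* -0.084 to 0.070, *rpt-5* -0.14 to 0.14 and *rpt-6* -0.14 to 0.37. The likelihood ratio test, filterByExpr and the replicate block turned no direction.

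Over all genes tested, 173 were called, 29 of them lower. DESeq2 called 264 with 63 lower, and the test without a filter 274 with 66 lower. The likelihood ratio test called 66 lower and the test on library totals 17. With 1 library left out the number called lower ran from 12 to 34. The replicate block called 137 genes. Libraries of the same number in the control and treated groups share a suffix in their labels whose meaning is not stated, and their residuals had correlations of 0.07, -0.54 and 0.40. They were not treated as pairs, and each library correlated best with its own number for replicate 3 alone.

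With 3 libraries a group, differences smaller than the intervals given were not detectable, and the groups are not shown to be alike.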
